A study of Mus musculus with 8 samples.

Results

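This account follows 44 genes typical of myeloid cells, dendritic cells and neutrophils through arrays of mouse CD8 T cells that had been cultured with dendritic cells. The genes were chosen by name as markers and effectors of those cells, with earlier results of these data known. All 44 were found among the 18193 genes that could be named on the array. Of them, 43 passed the filter on dim probe sets and were tested among 12520 genes; the lactoferrin gene Ltf was too dim on average and is given by its levels alone.

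CD8 T cells of C57BL/6 mice were taken from the spleen by positive selection on magnetic beads. They then spent 18 h beside dendritic cells grown from bone marrow, in a ratio of 10 T cells to each dendritic cell. The 4 groups, of 2 arrays each, were T cells lacking both p50 and cRel with dendritic cells carrying N4 (p50 cRel DKO N4), T cells lacking PKCθ with dendritic cells carrying N4 (PKCθ KO N4), wild-type T cells with dendritic cells carrying N4 (WT N4) and wild-type T cells with dendritic cells given no peptide (WT non-pulsed). N4 is a peptide of ovalbumin, PKCθ is a kinase that acts below the T cell receptor, and p50 and cRel are subunits of NF-κB. In all 4 groups, cells carrying CD11c were pulled out before the RNA was taken, and 100 ng of total RNA was labelled per array. The sources used here give neither the genotype or sex of the dendritic cells, nor the age of the mice or the antigen receptor of the T cells. They do not say that paired arrays stand for separate mice or cultures, so p-values cover only the variation among these arrays, part of which may be technical.

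Macrophages, monocytes, neutrophils and dendritic cells share a programme set by the transcription factors PU.1 and C/EBP and sustained by the cytokines M-CSF and GM-CSF. Bone-marrow cultures grown to give dendritic cells usually hold macrophages and granulocytes too. Lysozyme, C1q, neutrophil granule proteins and the M-CSF receptor are products of these cells and not typical ones of CD8 T cells.

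The arrays carried the T cell label in their markers: Cd3e, a chain of the T cell receptor complex, lay between 11.85 and 12.37 on all 8 arrays, and Cd8a between 11.16 and 13.29. These and all levels below are log2(signal + 16), a scale that understates the changes of dim genes, and levels are compared between arrays for 1 gene, not between genes. Rel, which encodes cRel, lay at 6.19 and 5.92 on the p50 cRel DKO N4 arrays and between 8.97 and 10.09 on the other 6 arrays. Prkcq, which encodes PKCθ, lay at 11.0 and 10.75 on the PKCθ KO N4 arrays, against 11.74 and 11.35 on the WT N4 arrays; the sources used here do not say whether its probe set covers the deleted part, so this is no check of the label, and the PKCθ KO arrays are named here as labelled. The Y-linked gene Eif2s3y ran at 5.42 to 6.73 in the 4 knockout samples, against 10.65 to 11.20 in the 4 wild-type samples, so in these data genotype and sex-linked transcripts cannot be told apart. Xist was high on WT non-pulsed replicate 2 (11.84) and low on WT non-pulsed replicate 1 (6.05).

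Growth factor receptors, integrins, transcription factors, pattern receptors, Fc receptors, granule proteins and macrophage effectors of myeloid cells were lower on WT N4 arrays than on WT non-pulsed arrays. Of the 43 genes tested, 41 fell and none rose in limma's test with Benjamini-Hochberg adjustment over all genes, at an adjusted p under 0.05. Ccr2 and Cd80 did not pass. Mrc1, Tlr4, Sirpb1a, Camp and C1qa averaged under the filter's level of 5.38 in every N4 group. The filter kept these genes only through WT non-pulsed, so it favours their falls. Over all 12520 genes, 23.5% were called lower in the same comparison. Scaling moved that split: 2159 of the 5101 genes called were higher as deposited, 2670 of 5090 with quantile normalization and 2261 of 3703 with median centring, which put the median of all genes at 0.08 and 0.30, while 40 and 41 members fell and none rose. The members' median difference was -3.88, against -0.10 over all genes, and their differences ran from -6.14 for Chil3 to -0.66 for Cd80. The median was -3.67 between the arrays numbered 1 and -3.95 between those numbered 2. In bulk RNA, fewer cells of a type and less RNA per cell cannot be told apart.

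On the linear scale, the signal left on the N4 arrays was small for most members. As a percentage of the mean WT non-pulsed signal, the median over the 44 genes was 4.82% in p50 cRel DKO N4, 5.04% in PKCθ KO N4 and 5.86% in WT N4. Under 10% was left for 34 genes in p50 cRel DKO N4, 31 in PKCθ KO N4 and 30 in WT N4. These counts were not tested between genotypes, and the share of all genes under 10% was not computed. Group means lay under the filter's 5.38 for 8 members in p50 cRel DKO N4, 10 in PKCθ KO N4 and 8 in WT N4. The percentages of those members rest on signal near background. C1qa, a chain of the complement protein C1q, lay at 4.15 to 4.25 on the 6 N4 arrays, under the filter's 5.38, so how much of it was left is not given. The summed signal of the 44 genes was 12121 and 12310 on the p50 cRel DKO N4 arrays, 16306 and 18366 on the PKCθ KO N4 arrays, 20082 and 13886 on the WT N4 arrays, and 205865 and 169001 on the WT non-pulsed arrays. All 6 N4 arrays lay below both WT non-pulsed arrays for 40 of the 43 tested genes, the exceptions being Ccr2, Cd80 and Siglech. The same held for 32.2% of all genes tested. For Mrc1, Tlr4, Sirpb1a, Camp and C1qa the filter favours this order.

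**Figure D1:**
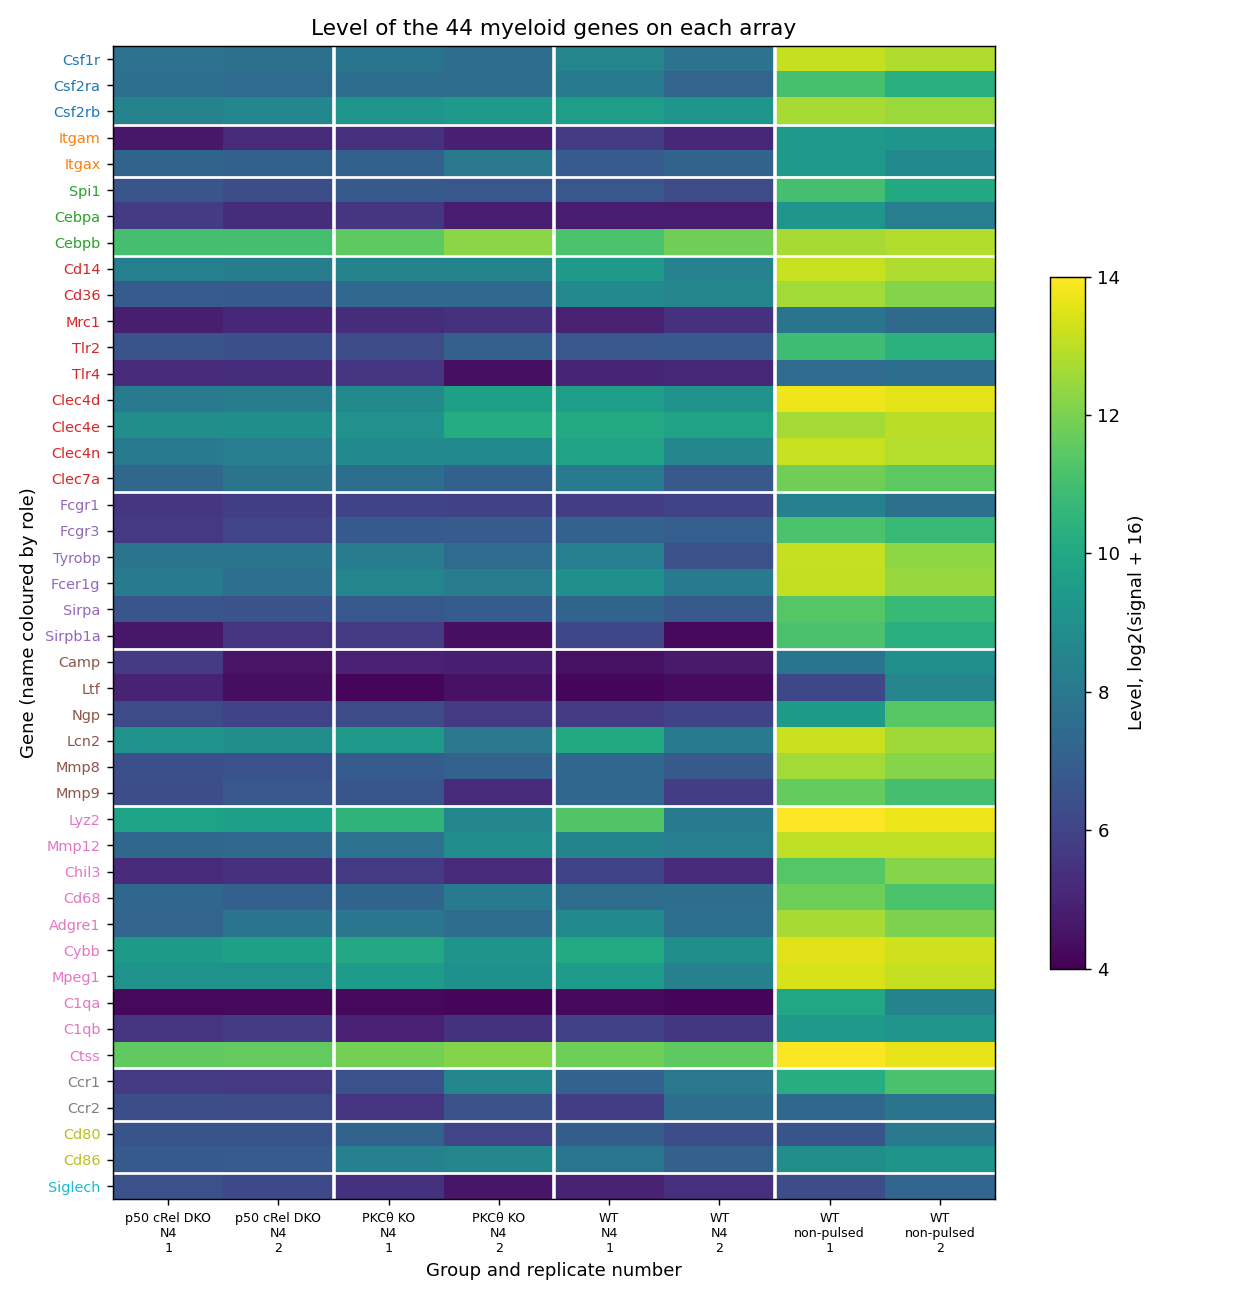
Heat map of the level, log2(signal + 16), of each of the 44 genes (rows, names coloured by role) on each of the 8 arrays (columns, p50 cRel DKO N4, PKCθ KO N4, WT N4 and WT non-pulsed). The WT non-pulsed arrays have the highest colours in nearly all rows, and the median level of the 44 genes was 6.74 to 7.38 on the 6 N4 arrays, against 11.36 and 11.16 on the WT non-pulsed arrays.

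Since these genes fell together, their promoters were read for the core motifs of the factors named above. RefSeq promoter windows on GRCm38.p6, from 250 bases before to 50 bases after the start of the gene, were found for 32 of the 44 members. GAGGAA, a core bound by PU.1, occurred on either strand in at least 1 window of 18 of the 32 members (56.2%), against 31.3% of the 27025 genes with a window. Those genes had 32851 windows, and a gene was counted if any of its windows held the match. The longer GAGGAAGT, which contains GAGGAA, occurred in 3 members (9.38%), against 3.69% of genes, and those 3 were Ctss, Mmp12 and Mmp8. The C/EBP motif TTGCNNAA occurred in 9 members (28.1%), against 12.2% of genes. A 10-letter NF-κB motif with 2 open positions occurred in 1 member, Tlr2 (3.12%), against 1.38% of genes. A match is a string of letters and does not show that a factor binds there.

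The windows below were picked by hand as examples. Those of Itgam, Ctss, Mmp12 and Mmp8 hold the PU.1 core more than once or in its longer form. Those of Mmp12, Mmp8 and Ngp hold the C/EBP motif. The Cd36 window belongs to the member that differed between N4 groups and holds none of these motifs. Other members with a match are not shown, such as Cd68, Clec4e, Fcgr3, Lcn2, Ltf and Siglech with the C/EBP motif. The windows are printed 5′ to 3′ on the strand of the gene, with motif matches on either strand in capitals. Where a gene had several windows, the one with the most matches is printed. Their positions on GRCm38.p6 are chr7:128062390-128062689 (plus strand) for Itgam, chr3:95526536-95526835 (plus) for Ctss, chr9:7344147-7344446 (plus) for Mmp12, chr9:7558179-7558478 (plus) for Mmp8, chr9:110419558-110419857 (plus) for Ngp and chr5:17835847-17836146 (minus) for Cd36.
Itgam: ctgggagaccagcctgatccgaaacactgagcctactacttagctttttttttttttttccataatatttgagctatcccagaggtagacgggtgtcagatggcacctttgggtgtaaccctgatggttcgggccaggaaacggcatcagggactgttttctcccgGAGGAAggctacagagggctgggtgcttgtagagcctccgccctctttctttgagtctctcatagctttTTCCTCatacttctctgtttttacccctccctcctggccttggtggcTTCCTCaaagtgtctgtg
Ctss: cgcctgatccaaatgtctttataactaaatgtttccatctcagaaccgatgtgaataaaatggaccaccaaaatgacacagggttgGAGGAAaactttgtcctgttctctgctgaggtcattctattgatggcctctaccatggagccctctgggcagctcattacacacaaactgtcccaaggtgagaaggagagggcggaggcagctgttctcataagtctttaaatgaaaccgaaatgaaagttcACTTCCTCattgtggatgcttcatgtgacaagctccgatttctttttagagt
Mmp12: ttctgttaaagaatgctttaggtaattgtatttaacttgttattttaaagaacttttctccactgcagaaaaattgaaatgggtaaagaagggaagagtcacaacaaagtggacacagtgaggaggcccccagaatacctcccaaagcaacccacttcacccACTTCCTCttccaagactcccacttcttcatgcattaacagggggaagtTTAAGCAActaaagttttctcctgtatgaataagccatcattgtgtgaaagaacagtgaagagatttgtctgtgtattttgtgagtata
Mmp8: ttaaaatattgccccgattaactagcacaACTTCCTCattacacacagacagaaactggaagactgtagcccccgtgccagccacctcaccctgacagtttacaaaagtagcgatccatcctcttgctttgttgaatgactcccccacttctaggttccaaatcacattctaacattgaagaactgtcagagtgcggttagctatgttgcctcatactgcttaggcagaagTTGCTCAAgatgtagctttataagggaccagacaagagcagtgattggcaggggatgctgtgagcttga
Ngp: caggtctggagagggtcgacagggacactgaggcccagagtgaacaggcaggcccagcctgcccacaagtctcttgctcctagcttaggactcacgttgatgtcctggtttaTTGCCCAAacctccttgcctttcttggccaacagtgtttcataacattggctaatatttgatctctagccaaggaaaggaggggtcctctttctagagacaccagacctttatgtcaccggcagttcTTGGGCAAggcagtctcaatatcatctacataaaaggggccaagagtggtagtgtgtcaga
Cd36: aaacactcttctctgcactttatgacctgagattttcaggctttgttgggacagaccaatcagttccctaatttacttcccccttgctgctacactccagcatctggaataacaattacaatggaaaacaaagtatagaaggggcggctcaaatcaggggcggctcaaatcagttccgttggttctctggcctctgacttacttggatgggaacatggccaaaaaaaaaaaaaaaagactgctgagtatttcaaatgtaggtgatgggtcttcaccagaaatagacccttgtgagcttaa

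The 3 receptors for myeloid growth factors fell with peptide. Csf1r, the receptor of M-CSF that macrophages need to survive, lay at 8.55 and 7.82 on the WT N4 arrays, against 13.11 and 12.80 on the WT non-pulsed arrays. Its difference was -4.76 (SE 0.26, limma adjusted p = 1.41e-05), which is 27.2-fold on this scale. The pairs of arrays were far apart relative to the spread within either pair. Csf2rb, the shared signalling chain of the GM-CSF, IL-3 and IL-5 receptors, lay at 9.61 and 9.27 in WT N4, against 12.70 and 12.51 in WT non-pulsed (difference -3.16, SE 0.18). Csf2ra, the GM-CSF-binding chain, lay at 8.14 and 7.25 in WT N4, against 11.07 and 10.27 in WT non-pulsed (difference -2.98, SE 0.34). Csf2ra spread more within each pair than the other 2 receptors, and its groups did not overlap.

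Both integrins fell, by different amounts. Itgam, which encodes CD11b of macrophages and neutrophils, lay at 5.79 and 5.15 in WT N4, against 9.40 and 9.24 in WT non-pulsed (difference -3.85, SE 0.36, limma adjusted p = 0.000105). Itgax, which encodes CD11c and so the protein by which dendritic cells were taken out, lay at 6.89 and 7.19 in WT N4, against 9.37 and 8.78 in WT non-pulsed (difference -2.04, SE 0.33, limma adjusted p = 0.00153). Cebpb, Siglech, Cd86, Ccr2 and Cd80 were the members with smaller differences than Itgax, and 21.7% of its WT non-pulsed signal was left in WT N4, against 4.71% for Itgam.

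Of the transcription factors, Spi1, which encodes PU.1, lay at 6.72 and 6.30 in WT N4, against 11.06 and 10.07 in WT non-pulsed (difference -4.05, SE 0.33, limma adjusted p = 6.03e-05). Cebpa, the factor of early granulocyte and monocyte development, lay at 4.80 and 4.74 in WT N4, against 9.24 and 8.29 in WT non-pulsed (difference -4.00, SE 0.43). Both WT N4 arrays put Cebpa under 5.38, the level of the filter on dim probe sets. Cebpb, which many cell types induce in inflammation, lay at 11.17 and 11.84 in WT N4, against 12.68 and 12.83 in WT non-pulsed (difference -1.25, SE 0.27, limma adjusted p = 0.00629). Cebpb kept 43.0% of its WT non-pulsed signal in WT N4, against 4.80% for Spi1.

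All 9 pattern recognition and scavenger receptors fell, by 2.47 (Tlr4) to 4.32 (Clec4d). Cd36, a scavenger receptor for lipids and lipoproteins, lay at 8.69 and 8.55 in WT N4, against 12.63 and 12.13 in WT non-pulsed (difference -3.76, SE 0.21, limma adjusted p = 1.46e-05). Clec4d, a C-type lectin of macrophages, lay at 9.56 and 9.12 in WT N4, against 13.73 and 13.60 in WT non-pulsed (difference -4.32, SE 0.27, limma adjusted p = 2.3e-05). Cd14, the co-receptor for lipopolysaccharide, lay at 9.40 and 8.43 in WT N4, against 13.15 and 12.83 in WT non-pulsed (difference -4.07, SE 0.29). For these 3 both WT N4 arrays lay well below both WT non-pulsed arrays. The other 6 were the mannose receptor Mrc1 (-2.49), the Toll-like receptors Tlr2 (-3.88) and Tlr4, and the lectins Clec4e (-2.86), Clec4n (-3.78) and Clec7a, the β-glucan receptor dectin-1 (-4.18).

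The 6 Fc receptors, ITAM adaptors and SIRP receptors fell by 2.10 (Fcgr1, the high-affinity IgG receptor) to 5.53 (Sirpb1a). Fcgr3, a low-affinity IgG receptor, lay at 7.13 and 6.99 in WT N4, against 11.18 and 10.78 in WT non-pulsed (difference -3.92, SE 0.25, limma adjusted p = 2.3e-05). Sirpa, the inhibitory receptor that reads CD47, lay at 7.24 and 6.79 in WT N4, against 11.38 and 10.74 in WT non-pulsed (difference -4.04, SE 0.27). Fcer1g, the adaptor that passes on signals of Fc receptors, lay at 9.03 and 8.08 in WT N4, against 13.07 and 12.44 in WT non-pulsed (difference -4.20, SE 0.35). The groups did not overlap for any of these 3. Tyrobp, which encodes the adaptor DAP12, had a larger difference (-5.32) with a larger error (SE 0.54), and its WT N4 arrays lay apart, at 8.31 and 6.47.

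The 5 neutrophil granule genes that were tested fell, and on the WT non-pulsed arrays some of them differed between replicates. Mmp8, the neutrophil collagenase, had the lowest p of all members: it lay at 7.39 and 6.81 in WT N4, against 12.61 and 12.17 in WT non-pulsed (difference -5.29, SE 0.26, limma adjusted p = 1.03e-05). Mmp9, a gelatinase, lay at 7.36 and 5.82 in WT N4, against 11.64 and 11.05 in WT non-pulsed (difference -4.76, SE 0.57). Ngp, neutrophilic granule protein, lay at 5.77 and 6.06 in WT N4, against 9.44 and 11.42 in WT non-pulsed (difference -4.51, SE 0.56). Ngp was thus 1.98 higher on WT non-pulsed replicate 2 than on replicate 1, while Mmp8 and Mmp9 were lower on replicate 2. Camp, the cathelicidin antimicrobial peptide, and Lcn2, an iron-sequestering lipocalin, had differences of -3.87 and -3.78. Ltf, not tested, lay at 4.19 and 4.29 in WT N4, against 6.16 and 8.53 in WT non-pulsed.

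The 10 macrophage and phagocyte effector genes all fell, and they hold both the largest fall and one of the smaller falls among the members. Chil3, a chitinase-like protein of macrophages, lay at 6.00 and 5.23 in WT N4, against 11.34 and 12.17 in WT non-pulsed (difference -6.14, SE 0.38, limma adjusted p = 2.03e-05). Mmp12, the macrophage elastase, lay at 8.52 and 8.29 in WT N4, against 13.06 and 13.04 in WT non-pulsed (difference -4.65, SE 0.33). Ctss, the cathepsin that trims the invariant chain of MHC class II, lay at 11.81 and 11.50 in WT N4, against 13.96 and 13.67 in WT non-pulsed (difference -2.16, SE 0.16, limma adjusted p = 4.62e-05). Ctss kept 22.3% of its signal, against 0.968% for Chil3. The other 7 fell by 3.54 to 5.01 and are the complement genes C1qa (-5.01) and C1qb (-3.54), the lysosomal glycoprotein Cd68 (-3.92), the macrophage surface receptor Adgre1, known as F4/80 (-4.16), the NADPH oxidase subunit Cybb (-3.84), the pore-forming protein Mpeg1 (-4.32) and lysozyme, Lyz2 (-4.28). Further probe sets of C1qb, both above the filter, differed by -5.97 and -5.36, so its -3.54 depends on the probe set used. Lyz2, singled out after its values were seen, lay at 11.28 and 8.16 in WT N4, against 14.23 and 13.76 in WT non-pulsed. Its difference was -2.95 between the arrays numbered 1 and -5.60 between those numbered 2, and its SE was 0.90.

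Of the 2 chemokine receptors, 1 fell and 1 did not pass. Ccr1, a receptor of inflammatory chemokines on monocytes and neutrophils, lay at 7.14 and 8.0 in WT N4, against 10.21 and 11.14 in WT non-pulsed (difference -3.11, SE 0.62, limma adjusted p = 0.00411). Ccr2, the receptor that brings monocytes out of the marrow and that memory and effector T cells carry too, lay at 5.82 and 7.61 in WT N4, against 7.35 and 7.86 in WT non-pulsed (difference -0.89, SE 0.56, limma adjusted p = 0.249). The Ccr2 groups overlapped, and without WT N4 replicate 1 its difference was 0.0065, while without WT N4 replicate 2 it was -1.78 (limma adjusted p = 0.0199).

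Cd86 and Cd80 are the ligands of CD28 on antigen-presenting cells. Cd86 lay at 7.93 and 7.05 in WT N4, against 8.93 and 9.18 in WT non-pulsed (difference -1.56, SE 0.29, limma adjusted p = 0.0031). Cd80 lay at 6.94 and 6.37 in WT N4, against 6.61 and 8.01 in WT non-pulsed (difference -0.66, SE 0.51, limma adjusted p = 0.346), with the WT N4 arrays inside the range of the WT non-pulsed ones or below it. Cd80 differed by 0.040 without WT non-pulsed replicate 2. Siglech, a lectin of plasmacytoid dendritic cells, lay at 4.96 and 5.40 in WT N4, against 6.36 and 7.24 in WT non-pulsed (difference -1.62, SE 0.44, limma adjusted p = 0.0169). That call was lost without WT N4 replicate 1 (difference -1.40, limma adjusted p = 0.0858), without WT non-pulsed replicate 2 (difference -1.18, limma adjusted p = 0.124) and with quantile normalization (difference -1.21, limma adjusted p = 0.0528).

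**Figure D2:**
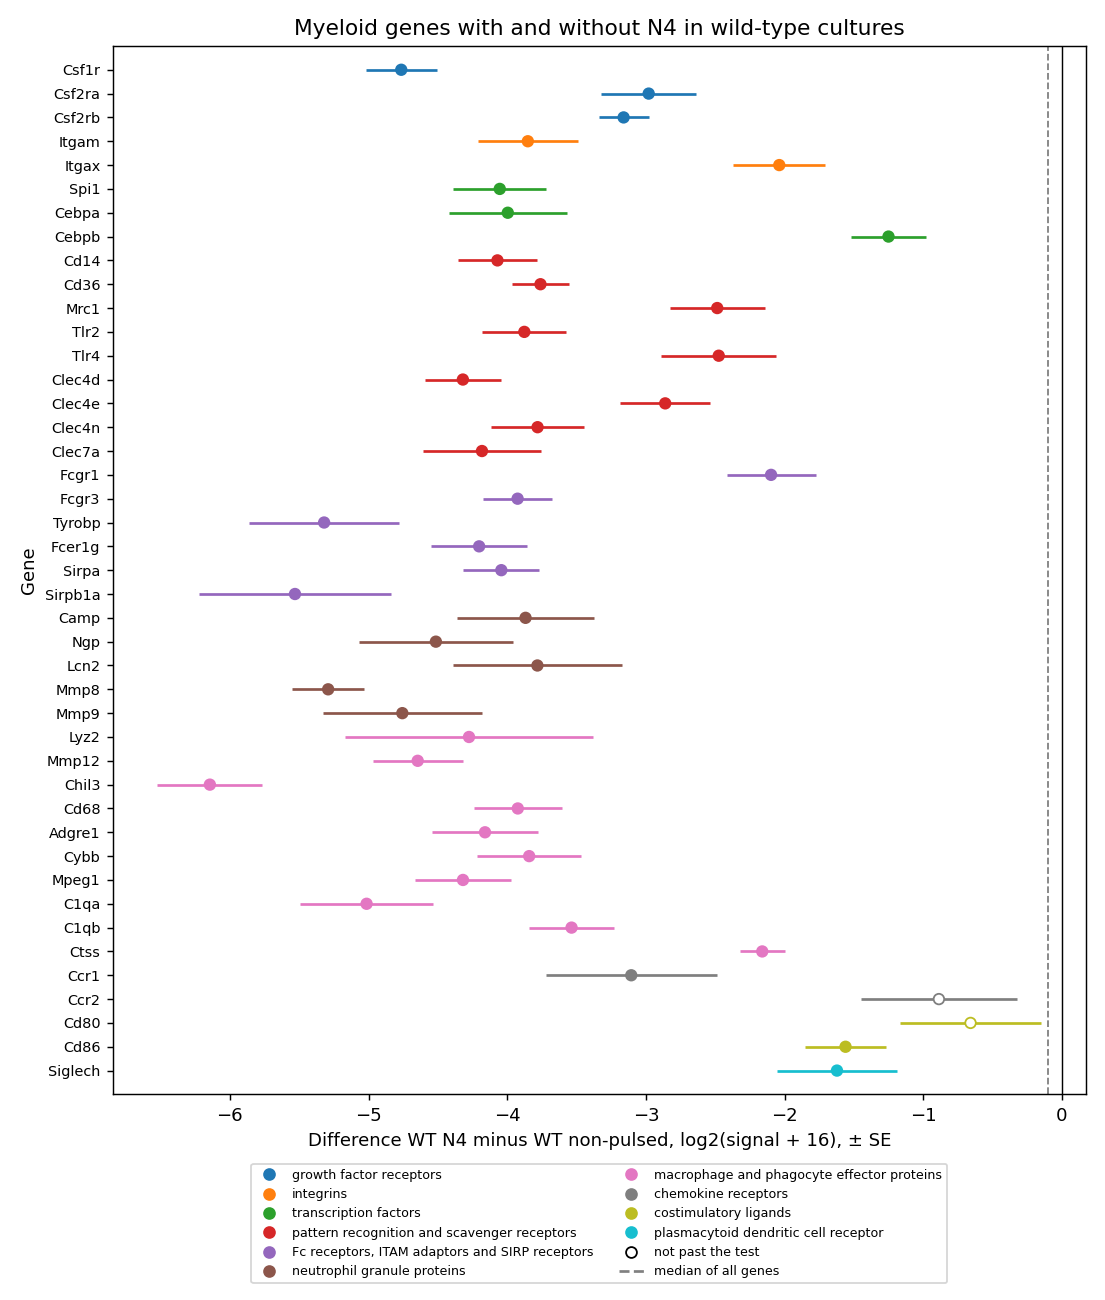
Difference between WT N4 and WT non-pulsed for the 43 tested genes, in log2(signal + 16) with ± SE (2 arrays per group), coloured by role. Filled points passed the test and open ones did not. All points lie left of 0, from Chil3 at -6.14 to Cd80 at -0.66, and the dashed line is the median of all genes at -0.10.

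The knockout cultures with N4 were set against the same WT non-pulsed arrays, so these comparisons share that group with the wild-type one and are given side by side. No knockout culture without peptide was among the arrays. Peptide, genotype and sex-linked transcripts therefore differ together here, and their parts cannot be told apart. For Mrc1, Tlr4, Sirpb1a, Camp and C1qa the filter favours lower values here too. In p50 cRel DKO N4, 40 of 43 tested members were called lower (as were 22.8% of all genes) and none higher. The median difference was -4.13, against -0.12 over all genes. In PKCθ KO N4, 41 of 43 were called lower (as were 24% of all genes) and none higher. The median difference was -4.11, against -0.13 over all genes. The members that did not pass differed between the 2 comparisons. Those of p50 cRel DKO N4 were Ccr2 (-1.23, limma adjusted p = 0.118), Cd80 (-0.72, limma adjusted p = 0.308) and Siglech (-0.47, limma adjusted p = 0.442). Those of PKCθ KO N4 were Cd80 (-0.69, limma adjusted p = 0.325) and Cd86 (-0.58, limma adjusted p = 0.149). Mmp8 differed from WT non-pulsed by -5.92 in p50 cRel DKO N4, -5.35 in PKCθ KO N4 and -5.29 in WT N4, and Csf1r by -5.25, -5.23 and -4.76 in the same order.

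Between N4 cultures of different genotype, 1 of the 43 members passed the test. The 2 comparisons with WT N4 share the WT N4 arrays. In p50 cRel DKO N4 against WT N4, Cd36 was called lower and no member was called higher; 0.272% of all genes were called lower. The members' median difference was -0.23, against -0.0019 over all genes, with 31 differences below 0 and 12 above. Of these members, Mrc1, Tlr4, Sirpb1a, Camp and C1qa lay under 5.38 on average in all 3 N4 groups and were kept by the filter only through WT non-pulsed, so their differences between N4 groups say nothing of expression; 2 of the 5 were below 0 here and 3 above. The median was -0.68 between the arrays numbered 1 and -0.09 between those numbered 2. The 2 groups of arrays did not overlap for 16 members that were lower in p50 cRel DKO N4 and 3 that were higher, and 15.3% of all genes lay lower and 15.3% higher without overlap. Tlr4, 1 of the 5 dim members, is among the 3 that were higher. In this comparison 10 members had an unadjusted p under 0.05, as did 6.29% of all genes.

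Cd36 lay at 6.90 and 6.83 in p50 cRel DKO N4, 7.41 and 7.43 in PKCθ KO N4, 8.69 and 8.55 in WT N4, and 12.63 and 12.13 in WT non-pulsed. The arrays of each group lay close together, and no array of one group reached into the next. Its difference between p50 cRel DKO N4 and WT N4 was -1.75 (SE 0.21, 95% interval -2.22 to -1.28, limma adjusted p = 0.0106). Its other 2 probe sets differed by -1.72 and -0.72. The call was lost without p50 cRel DKO N4 replicate 1 (difference -1.79, limma adjusted p = 0.114), without p50 cRel DKO N4 replicate 2 (difference -1.71, limma adjusted p = 0.12) and without WT N4 replicate 1 (difference -1.68, limma adjusted p = 0.0602). It was also lost with median centring (difference -1.76, limma adjusted p = 0.0697) and with the mean of a gene's probe sets (difference -1.40, limma adjusted p = 0.0757). In PKCθ KO N4 against WT N4 the difference of Cd36 was -1.20 (SE 0.21, 95% interval -1.67 to -0.73, limma adjusted p = 0.276), which did not pass.

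Other members with low p in p50 cRel DKO N4 against WT N4 did not pass the adjustment, and those given here were singled out after their values were seen. Csf2rb lay at 8.47 and 8.67 in p50 cRel DKO N4, 9.20 and 9.39 in PKCθ KO N4, and 9.61 and 9.27 in WT N4. Its difference between p50 cRel DKO N4 and WT N4 was -0.88 (limma adjusted p = 0.114). Fcgr3 lay at 5.65 and 6.10 in p50 cRel DKO N4, 6.84 and 6.86 in PKCθ KO N4, and 7.13 and 6.99 in WT N4, a difference of -1.18 from WT N4 (limma adjusted p = 0.123). For both genes the p50 cRel DKO N4 arrays lay below the other 4 N4 arrays. Clec4d lay at 8.09 and 8.22 in p50 cRel DKO N4, 8.80 and 9.67 in PKCθ KO N4, and 9.56 and 9.12 in WT N4, a difference of -1.18 from WT N4 (limma adjusted p = 0.164). Siglech went the other way, at 6.48 and 6.19 in p50 cRel DKO N4, 5.47 and 4.60 in PKCθ KO N4, and 4.96 and 5.40 in WT N4, a difference of 1.16 (limma adjusted p = 0.6).

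In PKCθ KO N4 against WT N4 no member passed limma's test with Benjamini-Hochberg adjustment, as against 0.024% of all genes called in either direction. That share is 3 genes, all lower in PKCθ KO N4: the Y-linked Eif2s3y, Uty and Kdm5d. It therefore cannot be told apart from the difference in sex-linked transcripts between these arrays. Of the members, 3 had an unadjusted p under 0.05, Cd36, Cd86 and Ctss, as did 2.96% of all genes. The members' median difference was -0.09, against -0.02 over all genes, and it was -0.37 between the arrays numbered 1 and 0.13 between those numbered 2. The groups did not overlap for 3 members that were lower in PKCθ KO N4 and 4 that were higher, and 14.3% of all genes lay lower and 11.5% higher without overlap. Camp, which was dim in every N4 group, is among the 4. Cd86 lay at 8.40 and 8.54 in PKCθ KO N4, against 7.93 and 7.05 in WT N4 (difference 0.98, SE 0.29, 95% interval 0.31 to 1.64, limma adjusted p = 1.00). Ctss lay at 11.90 and 12.16 in PKCθ KO N4, against 11.81 and 11.50 in WT N4 (difference 0.37, SE 0.16). The PKCθ KO N4 arrays were the higher pair for both genes without overlap, and neither gene passed.

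**Figure D3:**
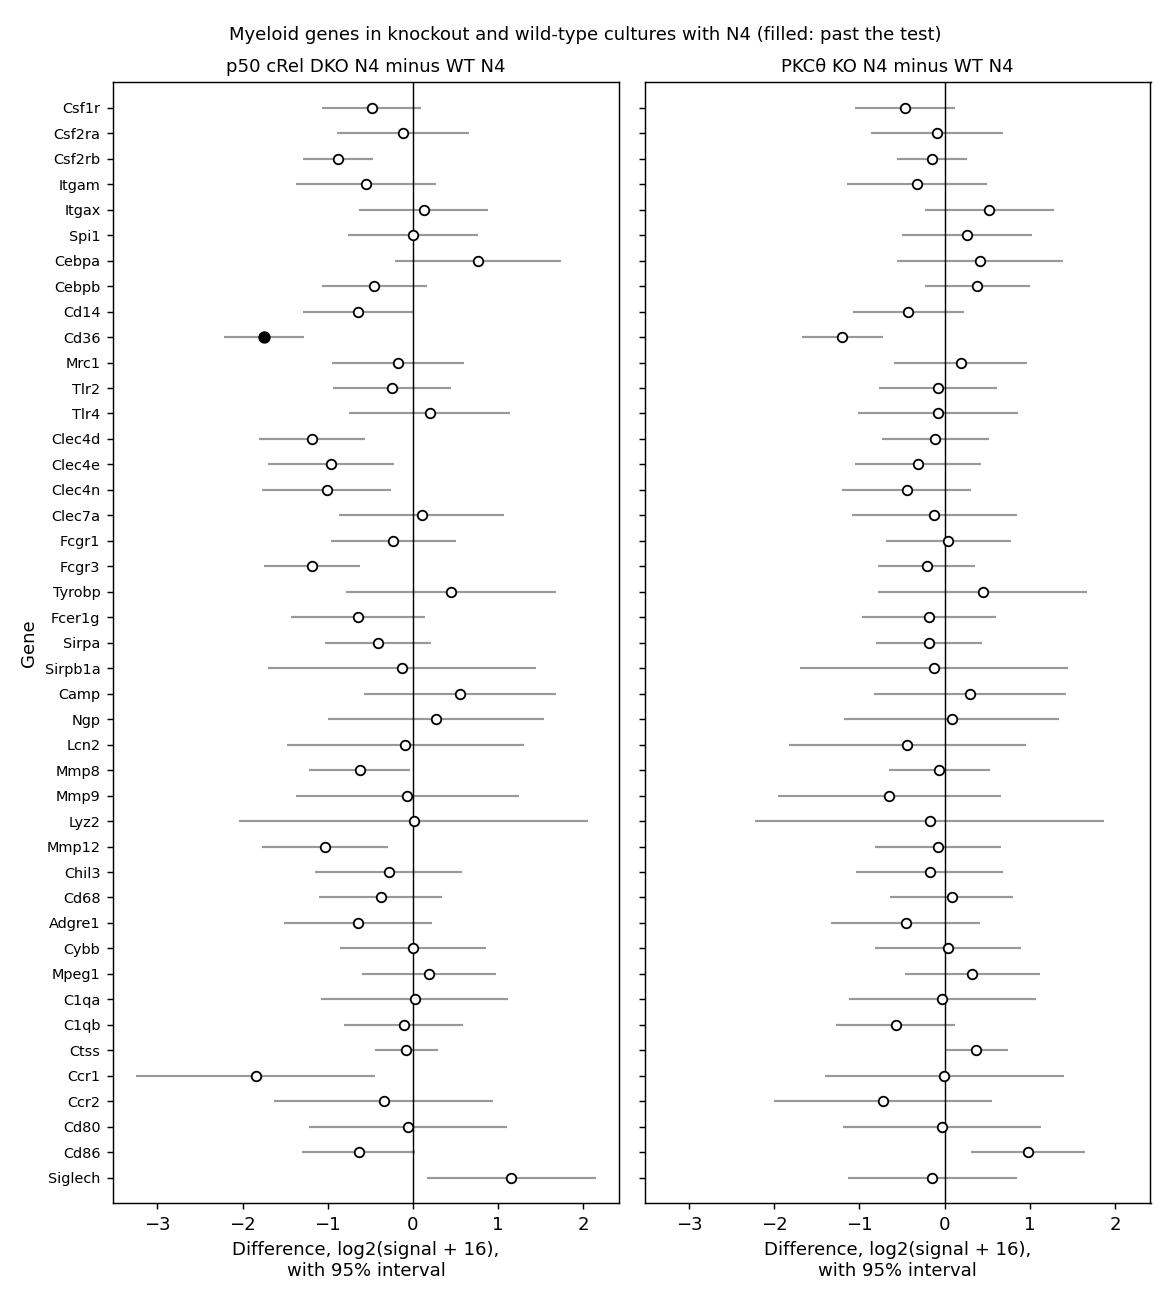
Differences of the 43 tested genes between p50 cRel DKO N4 and WT N4 (left) and between PKCθ KO N4 and WT N4 (right), in log2(signal + 16) with 95% intervals (2 arrays per group). The filled point is Cd36 at -1.75 in p50 cRel DKO N4, the member that passed the test. Both panels use the same WT N4 arrays.

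In p50 cRel DKO N4 against PKCθ KO N4 no member passed the test, as against 0.431% of all genes called in either direction, and 10 members had an unadjusted p under 0.05, as did 7.16% of all genes. The members' median difference was -0.19, against 0.02 over all genes. The groups did not overlap for 18 members that were lower in p50 cRel DKO N4 and 2 that were higher, and 15.7% of all genes lay lower and 18.3% higher without overlap. Mrc1, which was dim in every N4 group, is among the 18. Cd86 had the lowest p, at 6.84 and 6.87 in p50 cRel DKO N4, against 8.40 and 8.54 in PKCθ KO N4 (difference -1.61, SE 0.29, 95% interval -2.28 to -0.95, limma adjusted p = 0.0695). The groups did not overlap, and its other probe set differed by -2.17. Among the alternatives without a replicate block, it passed with the 2 groups fitted alone (limma adjusted p = 0.0187) and with the mean of a gene's probe sets (limma adjusted p = 0.0479). The next were Csf2rb (-0.73, SE 0.18, limma adjusted p = 0.238) and Clec4d (-1.08, SE 0.27, limma adjusted p = 0.263).

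The spread between the arrays of a group was itself uneven over the members. For p50 cRel DKO N4, replicate 2 was higher than replicate 1 for 23 members and lower for 21, with a median of 0.03. In PKCθ KO N4 the counts were 21 and 23 with a median of -0.05, and Ccr1 differed by 2.07 and Lyz2 by -1.91. In WT N4 replicate 2 was lower for 31 of 44, with a median of -0.39 and a range from -3.11 for Lyz2 to 1.79 for Ccr2. In WT non-pulsed replicate 2 was lower for 32 of 44, with a median of -0.32, and the exceptions held the granule genes Ltf (2.37), Ngp (1.98) and Camp (1.11), the ligand Cd80 (1.4) and the receptor Ccr1 (0.93). Ltf, Ngp and Camp thus moved apart from the 3 other granule genes, Lcn2, Mmp8 and Mmp9, which were lower on that array.

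**Figure D4:**
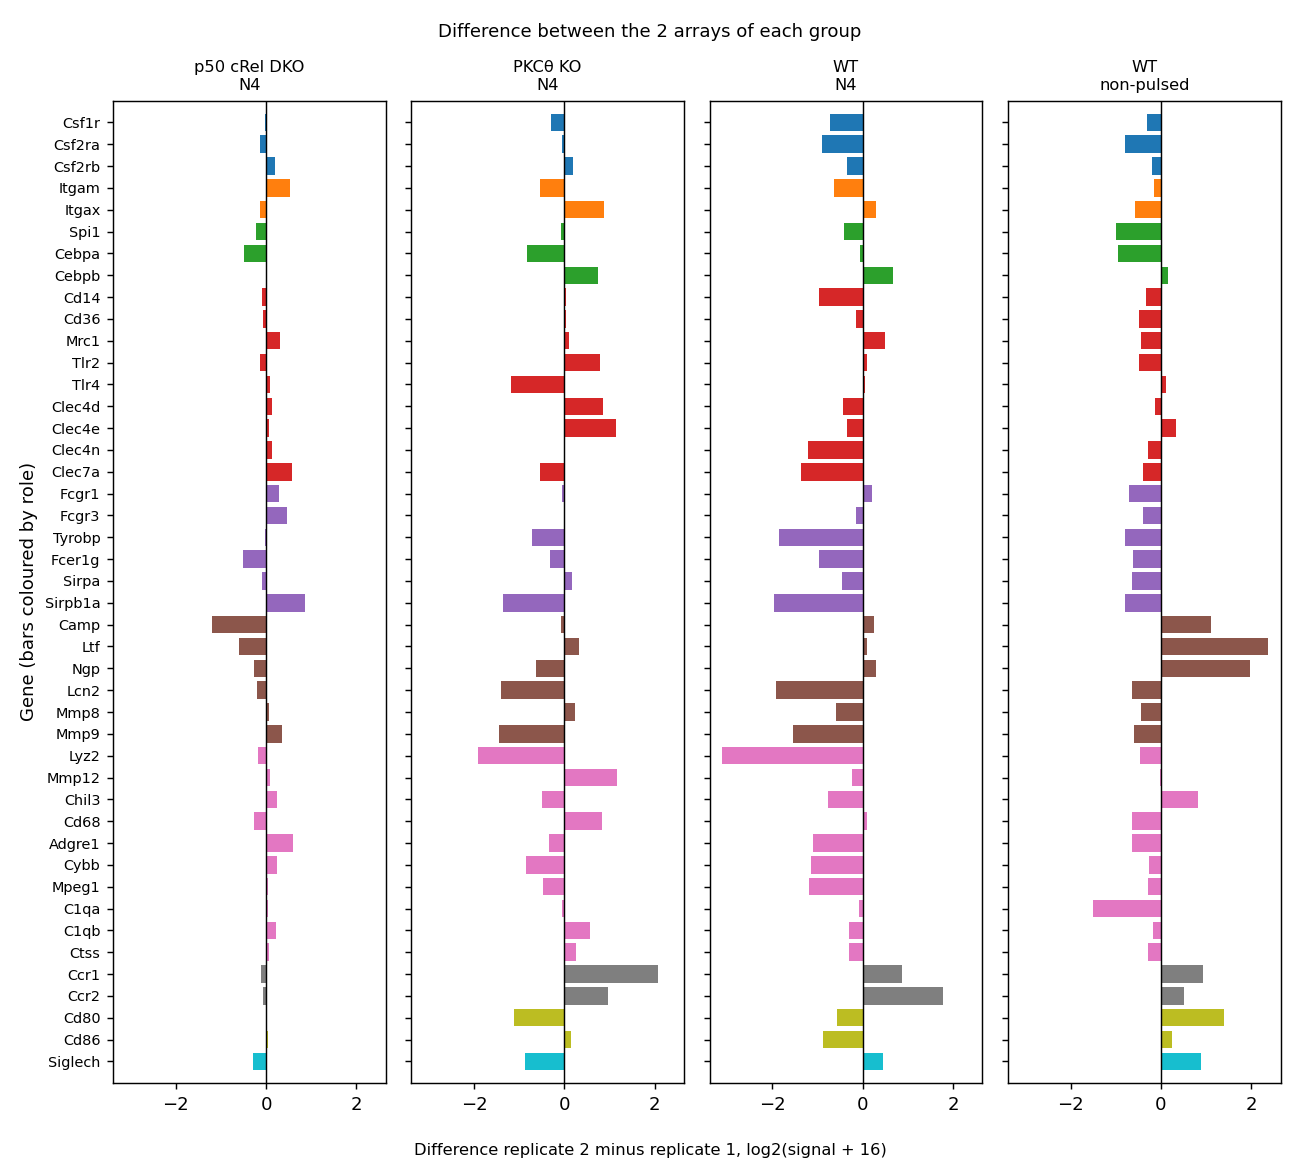
Difference between replicate 2 and replicate 1 for each of the 44 genes in p50 cRel DKO N4, PKCθ KO N4, WT N4 and WT non-pulsed, in log2(signal + 16), with bars coloured by role. WT N4 and WT non-pulsed have more bars to the left, with medians of -0.39 and -0.32, and the long bars to the right in WT non-pulsed are Ltf at 2.37 and Ngp at 1.98.

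Genes of the same and of other cell types outside the 44 were counted in WT N4 against WT non-pulsed from lists set up for this purpose. These lists too were chosen with earlier results of these data known. Of 20 other neutrophil genes 11 were tested and all 11 fell (median -3.20). They were led by Pglyrp1 (-3.69), a peptidoglycan-binding protein, and Mpo (-3.45), myeloperoxidase. The 15 of them found on the array had median levels of 5.16 to 5.59 on the N4 arrays, near the filter's 5.38. Their medians were 8.01 and 8.21 on the WT non-pulsed arrays. A gene under 5.38 on the N4 arrays is kept only if brighter in WT non-pulsed, so the filter itself favours falls in this list. How many of the 11 this covers was not counted. Of 20 other macrophage and monocyte genes tested all 20 fell (median -4.01), led by Alox5ap (-4.68), which serves leukotriene synthesis, and Ms4a6d (-3.69). Of 13 other dendritic cell genes tested 5 fell, none rose and 8 did not pass (median -1.0), with Cd83 (-2.70) and Fscn1 (-2.24), both of mature dendritic cells, lowest in p. That median was -0.50 between the arrays numbered 1 and -1.67 between those numbered 2. Of 6 other plasmacytoid dendritic cell genes 4 fell and 2 rose (median -0.97), with Tcf4 (-3.49) and Ly6d (-5.25) lowest in p. The 2 that rose were Bst2 (0.63), an interferon-induced gene, and Klk1 (0.69), named here after their values were seen. Cox6a2 (-1.29) and Pacsin1 (-0.65) of the same list fell less than Tcf4 and Ly6d.

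B cell markers moved with the myeloid genes: all 15 tested fell in WT N4 (median -4.31), led by Fcmr (-5.11), the IgM Fc receptor, and Ebf1 (-3.58), a B-lineage factor. Their summed signal was 4195 and 4224 in p50 cRel DKO N4, 5627 and 3023 in PKCθ KO N4, 4175 and 1252 in WT N4, and 71920 and 48272 in WT non-pulsed. Of 10 T cell genes 5 rose and none fell in WT N4 against WT non-pulsed (median 0.45), with Cd6 (2.47) and Cd5 (2.90) lowest in p, and their summed signal was 51231 to 68173 on the 6 N4 arrays and 32785 and 38052 on the WT non-pulsed arrays. Whether the proportions of cell types changed, and what part this had in the fall of the 44 genes, was not tested.

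The smaller lists gave fewer genes. Cd8a rose (1.07) and Cd8b1 did not pass (0.01). Of CD4 T cell genes Zbtb7b fell (-1.90) and Cd40lg rose (1.56), and of 3 NK cell genes Nkg7 rose (1.78) while Klre1 (-0.40) and Eomes did not pass. Of 4 erythroid genes 2 fell, with Car2 (-3.21) and Hbb-b2 (-1.59) lowest in p. Of 5 platelet genes 4 fell, with Ppbp (-5.38) and Itga2b (-2.07) lowest in p. Of 4 mast cell and basophil genes 3 fell, with Cpa3 (-2.90) and Mcpt8 (-2.96) lowest in p. On the N4 arrays the mast cell and basophil list had median levels of 5.03 to 5.78, and the erythroid list 4.72 to 5.70. Both lay near the filter's level of 5.38, so the limit given for the neutrophil list holds for their falls too. Between N4 groups no gene of these lists passed, other than the adhesion molecule Cd2 of the T cell list, which was lower in p50 cRel DKO N4 against WT N4 (-0.98, limma adjusted p = 0.0206) and against PKCθ KO N4 (-1.03, limma adjusted p = 0.022). The B cell median there was 0.43 in p50 cRel DKO N4 and 0.60 in PKCθ KO N4, both against WT N4.

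**Figure D5:**
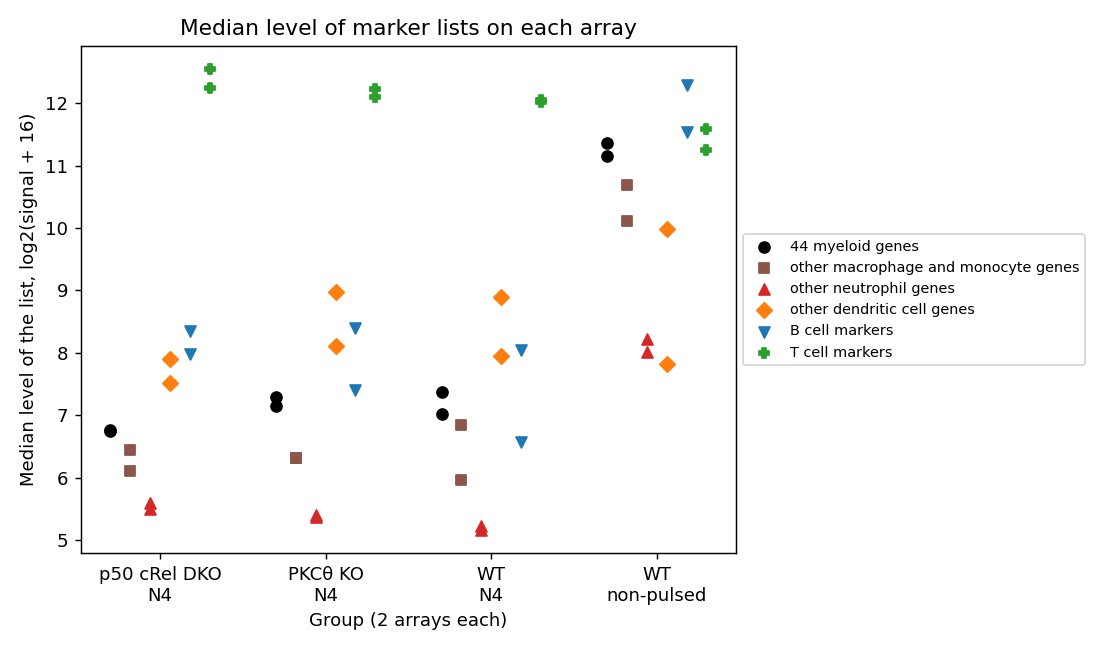
Median level, log2(signal + 16), of the 44 myeloid genes and of lists of other macrophage and monocyte, neutrophil, dendritic cell, B cell and T cell genes on each of the 8 arrays, by group. The myeloid genes lie between 6.74 and 7.38 on the N4 arrays and at 11.36 and 11.16 on the WT non-pulsed arrays, the B cell markers are high on the same 2 arrays, and the T cell markers are lowest there. The dendritic cell genes lie at 7.82 and 9.99 on the WT non-pulsed arrays and between 7.51 and 8.98 on the N4 arrays.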

How the data were processed

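Gene expression was measured on 8 arrays, 2 for each of 4 groups taken from the sample titles. The authors deposited a linear intensity for each probe set; the submitters' processing notes name GCOS 1.4 and MAS5 as its tools. The arrays had the same 2% trimmed mean signal, so levels are relative to it. A title with no replicate number was taken as replicate 1.

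Of 45101 probe sets, 34945 were named by 1 gene symbol in the platform annotation, 932 by several and 9160 by none, besides 64 controls. Symbols were updated by Entrez identifier for 34741. Values were taken as log2(signal + 16), and genes under the 40th percentile of mean level (5.38) were not tested. The probe set with the highest mean stood for a gene. In limma 3.58.1 (R 4.3.3), lmFit and eBayes with a trend were fitted to all 8 arrays, with Benjamini-Hochberg adjustment over 12520 genes. The test was tried on simulated data. The number of arrays, 2 a group, limits the precision.

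The members and gene lists were chosen with earlier results of these data known. Array values are given for the 3 members with the lowest p in each role in WT N4 against WT non-pulsed, for those not passing there or too dim to test, and for those passing between N4 groups or, where none passed, the 3 with the lowest p. Of other lists, the 2 genes with the lowest p are named. Promoter windows are RefSeq's on GRCm38.p6. Alternatives were the pseudocount, the filter, quantile and median normalization, the mean of probe sets, no trend, only 2 groups, a replicate block and leaving out each array.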

Additional observations from a re-analysis of the deposited data

How the results depend on the processing

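The members called in the 3 comparisons with WT non-pulsed kept their direction under all alternatives tried, with no member called higher. The counts called lower were 31 to 41 in p50 cRel DKO N4, 30 to 41 in PKCθ KO N4 and 31 to 42 in WT N4. The lowest counts came from the filter at the 60th percentile, which tested fewer genes. The median member level of each N4 array, relative to the WT non-pulsed mean, depended more on the processing. Under other pseudocounts, normalizations and the mean of probe sets, it moved by at least the SD within groups in 16 checks. In 14 checks it moved by less. PKCθ KO N4 against WT N4 gave 0 members throughout. In p50 cRel DKO N4 against WT N4 (1 member), 0 passed with median centring and 0 with the mean of probe sets, 2 passed with the replicate block (Cd36 and Csf2rb), and leaving out 1 array gave 0 to 2: 0 without p50 cRel DKO N4 replicate 1, p50 cRel DKO N4 replicate 2 or WT N4 replicate 1, and 2 without WT N4 replicate 2. In p50 cRel DKO N4 against PKCθ KO N4 (0 members), Cd86 alone passed with the mean of probe sets, with only the 2 groups and with the replicate block (1 member each), and leaving out 1 array gave 0 to 1, Mmp12 without PKCθ KO N4 replicate 1. The cause was not tested.

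The replicate block raised the calls over all genes to 200, against 65, in p50 cRel DKO N4 against WT N4, and to 152, against 54, in p50 cRel DKO N4 against PKCθ KO N4, and changed no other call between N4 groups among the members named; other alternatives gave 13 to 81 and 0 to 98 genes in those comparisons, and 0 to 4, against 3, in PKCθ KO N4 against WT N4. The labels do not say what a number shares; same-numbered arrays deviated together with r of 0.25 to 0.58 over all genes and -0.26 to 0.65 over the members, with only 2 numbers. Leaving out 1 array gave -1.78 to 0.0065 for Ccr2 and -1.36 to 0.040 for Cd80, reversed without WT N4 replicate 1 and without WT non-pulsed replicate 2 in that order. Of the N4 groups' mean levels, 8 members in p50 cRel DKO N4, 10 in PKCθ KO N4 and 8 in WT N4 lay under the filter's 5.38, where signal over background limits the size of a fall.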
